A study of Homo sapiens with 12 samples.

Results

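The human collagen genes were followed through 12 RNA-seq libraries of the renal carcinoma lines 769-P and ACHN. Members were every gene whose symbol is COL, a number, the letter A and a number, and this rule found 44 of the 58302 genes listed for each library. The study transfected both lines with siRNA against NUF2, a subunit of the NDC80 kinetochore complex, or with a control siRNA, and extracted total RNA after 48 h. Each of the 4 groups (769-P siControl, 769-P siNUF2, ACHN siControl and ACHN siNUF2) held 3 libraries, named here as replicates 1 to 3. The siNUF2 reagent was a mixture of siRNAs, each line is labelled as clear cell renal cell carcinoma, and the labels describe no other alteration of either line. The comparisons below ask how the collagen genes differed between the lines under siControl, and how they changed with siNUF2 within each line. Nothing in the labels says whether the replicates were separate cultures, so p-values measure only the spread between these libraries, which may be technical.

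Levels are given as FPKM, the fragments mapped to a gene divided by its length and by a total set for each library. NUF2 itself was 18.3 ± 0.951 FPKM (mean ± SD, n = 3 in every group) with siControl and 3.68 ± 0.602 FPKM with siNUF2 in 769-P. It was 13.8 ± 1.94 and 3.85 ± 1.53 FPKM in ACHN, without overlap in either line. Between 28687228 and 38058949 reads in genes could be recovered per library. Of 10 markers of renal epithelium or renal carcinoma, VIM among them, 7 were at 1 FPKM or more in every 769-P library and 8 in every ACHN library. The epithelial markers CDH1 and EPCAM averaged 0.00183 and 0.834 FPKM in 769-P siControl, and CDH6 averaged 0.000699 FPKM in ACHN siControl. CA9, a hypoxia target typical of clear cell renal carcinoma, did not exceed 0.121 FPKM in either line. All 4 endothelial and all 4 leukocyte markers stayed below 0.5 FPKM in every library. Of 8 fibroblast markers, 7 stayed below 0.5 FPKM in 769-P and 5 in ACHN. The summed fibroblast list ran from 1.77 to 3.04 FPKM in 769-P and from 41.0 to 62.5 FPKM in ACHN, where THY1 alone averaged 52.2 FPKM with siControl, while DCN, LUM, PDGFRA, FAP and POSTN averaged under 0.1 FPKM in every group.

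Collagens are the main structural proteins of the extracellular matrix, built from 3 alpha chains wound into a triple helix, and each COL gene encodes one alpha chain. Fibrillar collagens form the cables of connective tissue, type IV collagen forms the sheet of the basement membrane on which kidney epithelium rests, type VI forms beaded filaments, and fibril-associated, transmembrane and basement membrane zone collagens link these networks to each other and to cells. Chains of one type are made as partners, such as COL1A1 with COL1A2, COL4A1 with COL4A2 and COL6A1 with COL6A2 and COL6A3. Before secretion the chains are hydroxylated and folded by dedicated chaperones. Trimming and cross-linking take place largely during or after secretion.

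In both lines most of the collagen message came from basement membrane genes. COL4A1, COL4A2 and COL18A1 together held 85.02 ± 1.302% (SD, n = 3) of the summed collagen FPKM of 769-P siControl libraries and 81.6 ± 2.43% of ACHN siControl libraries. The summed level over the 44 genes was 295 ± 16.1 FPKM in 769-P and 581 ± 50.3 FPKM in ACHN, without overlap. Of the 44 genes, 20 reached 0.5 FPKM in at least 1 library, 7 peaked between 0.1 and 0.5 FPKM, and 17 stayed below 0.1 FPKM everywhere, including COL9A1, which was listed at 0 in all 12 libraries. In 769-P, 8 genes were at 1 FPKM or more in every library (COL4A1, COL4A2, COL4A5, COL6A1, COL6A2, COL7A1, COL18A1 and COL27A1), and in ACHN 14 genes were.

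By class, the 6 basement membrane network chains (type IV) summed to 140.5 FPKM in 769-P siControl and 403 FPKM in ACHN siControl, as sums of group means. The 11 fibrillar chains summed to 7.67 and 16.2 FPKM, the 5 beaded filament chains (type VI) to 21.4 and 35.6 FPKM, the 3 short-chain network genes to 0.184 and 23.3 FPKM, and the 10 fibril-associated genes to 0.165 and 15.7 FPKM. The short-chain and fibril-associated classes were thus near 0 in 769-P alone. The 4 transmembrane collagens summed to 0.109 FPKM in 769-P and 1.504 FPKM in ACHN, through COL13A1 (0.396 to 2.72 FPKM over the 6 ACHN libraries) and COL17A1, a hemidesmosome component (0.436 to 1.13 FPKM). COL11A2, a minor fibrillar chain, ran from 0.128 to 0.291 FPKM in 769-P and from 0.183 to 1.005 FPKM in ACHN, with overlap. COL8A2, the partner of COL8A1, did not exceed 0.0654 FPKM in 769-P and 0.517 FPKM in ACHN. The cartilage chains COL2A1, COL9A1 and COL10A1 stayed below 0.1 FPKM in both lines. Cartilage chains were not all low, since COL9A2, of the same type as COL9A1, reached 0.281 FPKM in ACHN. COL27A1, also a chain of cartilage, was at 5.31 FPKM or more in every library of both lines. These genes fall outside the naming rule and were chosen after their values were seen.

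**Figure D1:**
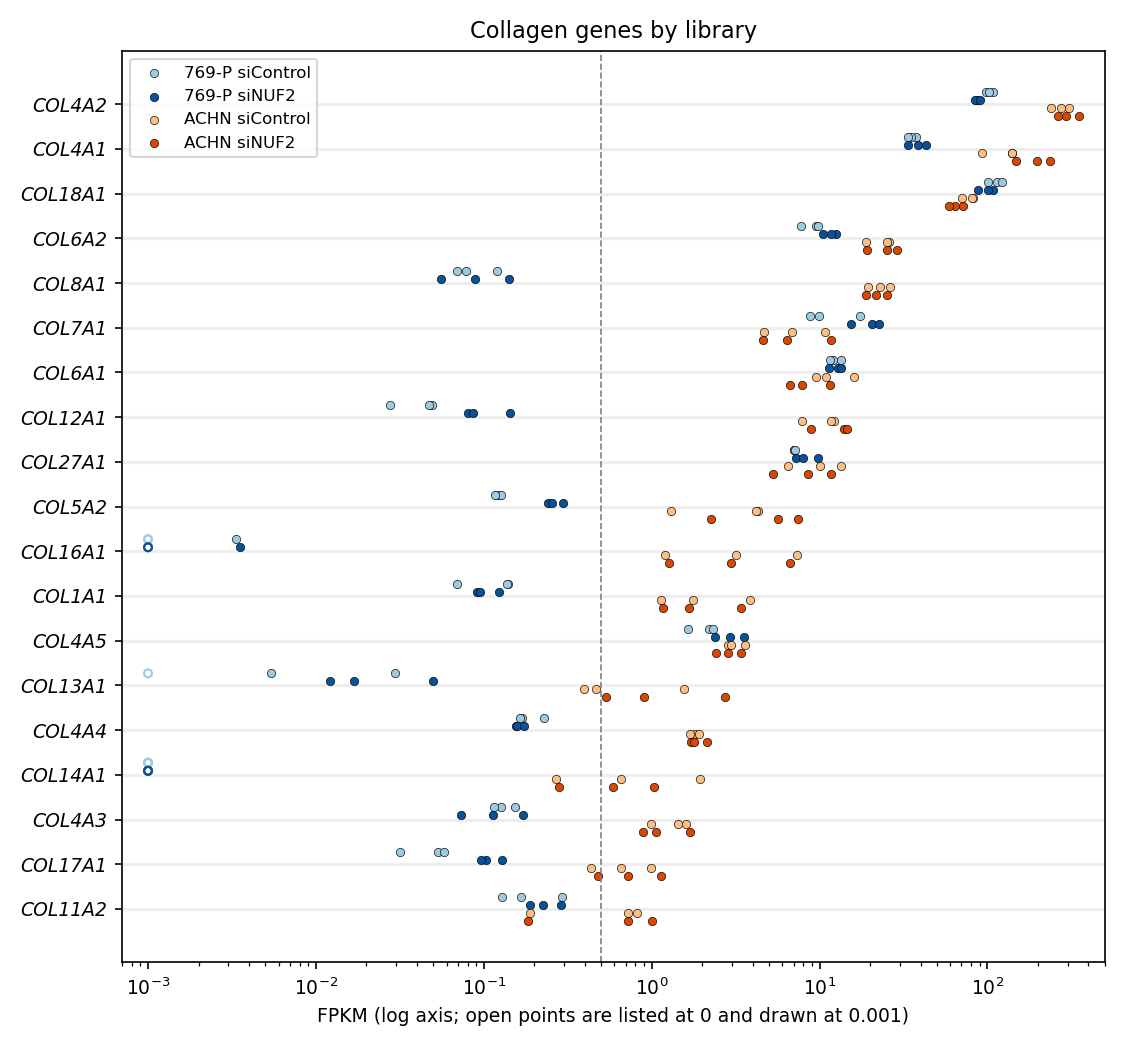
FPKM of the 19 collagen genes that passed the filter on low values, 1 point per library on a log axis, coloured by line and siRNA, with a dashed line at 0.5 FPKM. COL4A1, COL4A2, COL18A1, COL6A1, COL6A2, COL7A1, COL27A1 and COL4A5 lie right of the line in all 12 libraries, while the other 11 genes lie left of it in every 769-P library.

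Differences between the lines were tested with limma on log2(FPKM + 0.1) after scaling the libraries to each other, over genes with at least 0.5 FPKM in at least 3 of the 6 siControl libraries, and a gene was called at a Benjamini-Hochberg adjusted p below 0.05 over all genes tested. With siControl, 11 of the 15 collagen genes that passed this filter were lower in 769-P than in ACHN and 1, COL18A1, was higher. Over all 15376 genes tested, 29.3% were lower and 32.2% higher in 769-P. The median log2 fold change was -1.74 over the 15 collagen genes and 0.04 over all genes. Of the tested genes at 0.5 FPKM or more in every siControl library, COL4A1, COL4A2, COL4A5 and COL6A2 were called lower and COL18A1 higher. COL6A1, COL7A1 and COL27A1 were not called. The other tested genes, COL1A1, COL4A3, COL4A4, COL5A2, COL8A1, COL12A1 and COL16A1, stayed below 0.5 FPKM in every 769-P library. They passed the filter only through ACHN and could only come out lower, which tilts the count of lower calls and the median. The 15 are not all members. The fibroblast markers above moved in the same direction, through THY1, ACTA2 (1.66 to 2.57 FPKM in 769-P siControl and 3.25 to 3.67 FPKM in ACHN siControl) and PDGFRB, while DCN, LUM, PDGFRA, FAP and POSTN were near 0 in both lines. Their part in the result was not tested. In bulk libraries, fewer cells with a message and less message per cell cannot be told apart.

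**Figure D2:**
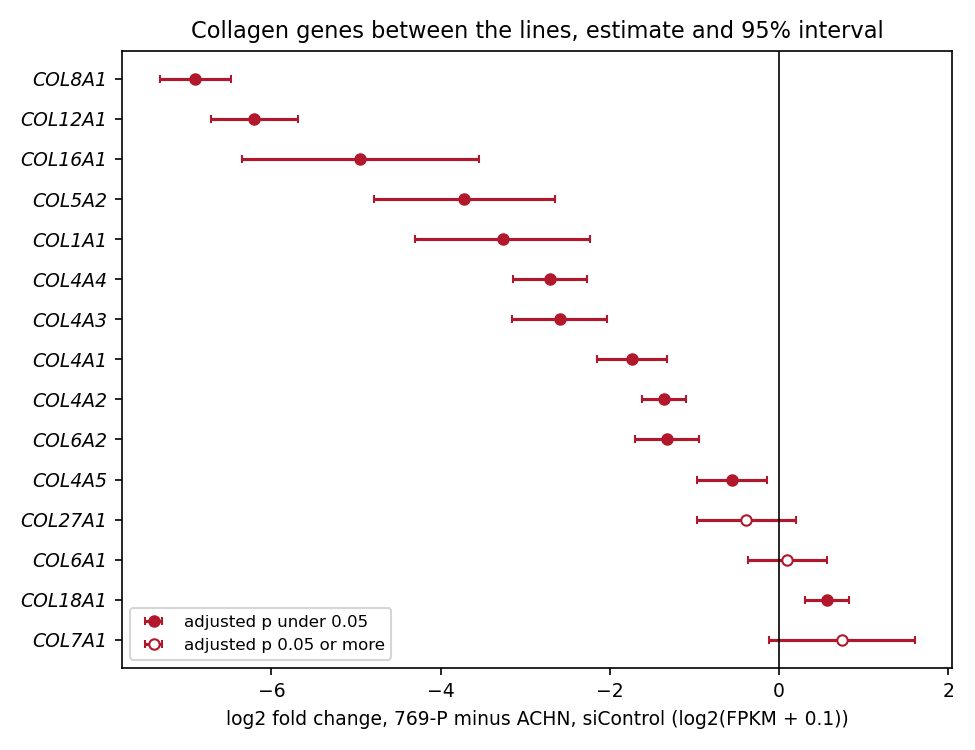
Log2 fold change (769-P minus ACHN, siControl, on the log2(FPKM + 0.1) scale) of the 15 tested collagen genes, with 95% intervals and filled points where the adjusted p was below 0.05. From COL8A1 at -6.90 to COL4A5 at -0.56 the filled points lie left of 0, and COL18A1 at 0.57 is the one filled point to the right.

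Type IV chains are encoded by 3 head-to-head gene pairs. On chromosome 13, the COL4A1 and COL4A2 starts given by RefSeq (GRCh38.p14) lie 127 bases apart on opposite strands, and on chromosome 2 the COL4A3 and COL4A4 starts lie 419 bases apart. RefSeq promoter windows, reaching from 250 bases before a start to 50 after it, were present for 32 of the 44 genes (44 windows). The windows of COL4A2, COL4A3 and COL4A4 are shown because the chains of each pair are read in opposite directions from 1 short stretch. The part of this arrangement in the results was not tested. COL4A2 window, chr13:110307034-110307333, plus strand, where the capitals run from the COL4A1 start (transcribed to the left) to the COL4A2 start (transcribed to the right); COL4A3 window, chr2:227164374-227164673, plus strand; and COL4A4 window, chr2:227164156-227164455, minus strand, where the capitals mark the 82 bases that lie in both windows:
COL4A2: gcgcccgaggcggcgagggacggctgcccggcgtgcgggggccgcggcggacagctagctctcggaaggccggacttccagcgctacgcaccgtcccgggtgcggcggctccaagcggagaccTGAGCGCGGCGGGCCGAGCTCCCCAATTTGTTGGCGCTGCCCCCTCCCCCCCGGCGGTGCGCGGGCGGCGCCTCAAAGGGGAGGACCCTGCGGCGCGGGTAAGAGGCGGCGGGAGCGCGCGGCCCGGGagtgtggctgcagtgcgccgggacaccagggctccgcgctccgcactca
COL4A3: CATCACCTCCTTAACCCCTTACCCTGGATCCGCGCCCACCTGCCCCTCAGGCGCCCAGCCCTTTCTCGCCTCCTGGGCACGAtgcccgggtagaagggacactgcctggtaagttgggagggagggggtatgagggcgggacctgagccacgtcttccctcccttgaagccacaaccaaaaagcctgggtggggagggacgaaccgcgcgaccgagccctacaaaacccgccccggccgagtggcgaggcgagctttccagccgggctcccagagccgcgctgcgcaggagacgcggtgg
COL4A4: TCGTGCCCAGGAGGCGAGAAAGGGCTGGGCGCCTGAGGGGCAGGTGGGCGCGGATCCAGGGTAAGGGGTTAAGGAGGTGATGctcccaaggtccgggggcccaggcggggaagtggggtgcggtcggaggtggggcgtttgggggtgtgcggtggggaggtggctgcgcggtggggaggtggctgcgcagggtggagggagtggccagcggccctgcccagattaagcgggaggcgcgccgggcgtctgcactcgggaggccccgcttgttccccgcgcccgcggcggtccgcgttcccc
Both strands were searched for the letters TATAAA, those of the core promoter element bound by TBP, for CCAAT, the element bound by NF-Y, and for GGGCGG, the element bound by SP1, and no matches in the printed windows overlap each other. CCAAT lies 105 bases before the COL4A2 start, and GGGCGG lies 65 bases before it. The COL4A3 window holds GGGCGG 117 and 23 bases before the start, and the COL4A4 window holds none of these letters. The letters TATAAA were in 8 of the 44 collagen windows against 11.5% of all 35116 RefSeq windows. For CCAAT the count was 14 of 44 against 34.6%, and for GGGCGG it was 24 of 44 against 45.0%.

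COL4A1 and COL4A2, which make the ubiquitous basement membrane trimer, were the most abundant collagen messages of ACHN and lower in 769-P. COL4A2 was 97.9, 108 and 102 FPKM in 769-P siControl replicates 1 to 3 and 241, 273 and 305 FPKM in ACHN siControl (log2 fold change -1.36 ± 0.11 (SE), limma adjusted p = 7.66e-05). COL4A1 was 37.5, 35.1 and 33.6 FPKM in 769-P and 92.4, 141 and 139.8 FPKM in ACHN (log2 fold change -1.74 ± 0.17 (SE), limma adjusted p = 0.000194). For both genes every 769-P library lay below every ACHN library. FPKM divides by a gene length. Whole reads were recovered for COL4A2 with a length of 8706 bases, while its annotated exons cover 19293 bases, and the level of one chain against the other depends on the length used.

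COL4A3 and COL4A4, chains of the mature glomerular basement membrane, were low and differed more. COL4A4 was 0.168, 0.227 and 0.165 FPKM in 769-P and 1.82, 1.92 and 1.68 FPKM in ACHN (log2 fold change -2.71 ± 0.18 (SE), limma adjusted p = 3.89e-05), and COL4A3 was 0.127, 0.154 and 0.115 and 1.61, 1.44 and 0.994 FPKM (log2 fold change -2.59 ± 0.24 (SE), limma adjusted p = 0.000132). COL4A5, their partner chain from the X chromosome, was 1.66, 2.19 and 2.33 FPKM in 769-P and 2.83, 3.59 and 2.99 FPKM in ACHN (log2 fold change -0.56 ± 0.17 (SE), limma adjusted p = 0.0286). The groups of COL4A5 did not overlap either, but its call was lost with upper-quartile scaling (log2 fold change -0.43, limma adjusted p = 0.0652) and without 769-P siControl replicate 1 (-0.42, adjusted p = 0.0823), 769-P siControl replicate 2 (-0.60, 0.0571), ACHN siControl replicate 2 (-0.46, 0.0745) or ACHN siControl replicate 3 (-0.59, 0.0575). COL4A6 did not pass the filter, at 0.00732, 0.0134 and 0.00333 FPKM in 769-P (2, 4 and 1 reads) and 0.0343, 0.383 and 0.211 FPKM in ACHN (10, 137 and 69 reads).

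COL18A1, a multiplexin of basement membranes whose C-terminal fragment is endostatin, was the one collagen gene called higher in 769-P. It was 114, 122 and 101 FPKM in 769-P and 82.5, 81.2 and 70.2 FPKM in ACHN, without overlap (log2 fold change 0.57 ± 0.11 (SE), limma adjusted p = 0.00404). COL18A1 shares 1401 of its 8525 annotated exonic bases with SLC19A1 on the opposite strand, which reached at most 8.22 FPKM, and whether reads were counted by strand is not given in the sources used here. COL18A1 made up 38.1 ± 1.59% of the summed collagen FPKM in 769-P siControl and 13.5 ± 2.23% in ACHN siControl. The sum itself differed too, at 295 FPKM in 769-P and 581 FPKM in ACHN. The other multiplexin, COL15A1, did not exceed 0.1 FPKM.

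Fibrillar chains were detected without their usual partners. COL1A1, which pairs with COL1A2 in type I collagen, was 0.0692, 0.1397 and 0.138 FPKM in 769-P (20, 44 and 44 reads) and 1.14, 3.87 and 1.76 FPKM in ACHN (log2 fold change -3.27 ± 0.43 (SE), limma adjusted p = 0.000706). COL1A2 had 0, 1 and 0 reads in the 769-P siControl libraries and 0, 0 and 0 in the ACHN siControl libraries, and COL3A1, the type III chain, had 0, 0 and 2 and 0, 0 and 0. COL5A2 was 0.123, 0.126 and 0.116 FPKM in 769-P and 1.295, 4.32 and 4.21 FPKM in ACHN (log2 fold change -3.72 ± 0.45 (SE), limma adjusted p = 0.000469), whereas COL5A1, its partner, did not exceed 6 reads in any of the 12 libraries. COL1A2, COL3A1 and COL5A1 were thus at or near 0 in lines with up to 1465 COL1A1 reads and up to 1832 COL5A2 reads. COL27A1, a fibrillar chain of cartilage, was the most abundant of this class in both lines, at 7.0002, 7.04 and 7.18 FPKM in 769-P and 13.4, 6.47 and 10.01 FPKM in ACHN, and its difference was not called (log2 fold change -0.39 ± 0.25, 95% interval -0.98 to 0.20, limma adjusted p = 0.21) unless ACHN siControl replicate 2 was left out (-0.66, adjusted p = 0.009).

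The largest differences were in the network and fibril-associated collagens of ACHN. COL8A1, a short-chain collagen of vascular and corneal matrix, was 0.119, 0.0696 and 0.0788 FPKM in 769-P and 26.4, 22.9 and 19.5 FPKM in ACHN (log2 fold change -6.90 ± 0.18 (SE), limma adjusted p = 1.3e-06). From the reads, 78 in 769-P against 22555 in ACHN, the ratio was 258 (exact 95% interval 207 to 327, which covers counting error only). COL12A1, a fibril-associated collagen, was 0.04897, 0.0275 and 0.047004 FPKM in 769-P and 7.905, 12.3 and 11.7 FPKM in ACHN (log2 fold change -6.20 ± 0.21 (SE), limma adjusted p = 2.75e-06). Its reads, 48 in 769-P against 14161 in ACHN, gave a ratio of 264 (exact 95% counting interval 199 to 358). COL16A1, another of this class, had 1 read in all 769-P siControl libraries together against 923, 428 and 2393 reads in ACHN, a ratio of 3345 with an exact 95% counting interval of 600.0 to 132155. Its fitted log2 fold change of -4.95 (limma adjusted p = 0.000424) depends on the added 0.1. COL14A1 had 0 reads in all 6 769-P libraries and 530, 219 and 82 reads in ACHN siControl, at least 86.4-fold higher in ACHN against a floor of 3 reads per library. It did not pass the filter in this comparison, with 2 libraries at 0.5 FPKM or more, and was named after its values were seen.

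Type VI chains differed unequally. COL6A2 was 9.53, 9.81 and 7.71 FPKM in 769-P and 25.96, 18.99 and 25.2 FPKM in ACHN (log2 fold change -1.32 ± 0.16 (SE), limma adjusted p = 0.00044). COL6A1, its neighbour on chromosome 21, was 12.1, 13.5 and 11.6 FPKM in 769-P and 16.1, 9.55 and 10.9 FPKM in ACHN, with overlapping groups (log2 fold change 0.10 ± 0.20, 95% interval -0.37 to 0.56, limma adjusted p = 0.689). COL7A1, the anchoring fibril chain of epithelial basement membranes, was 17.5, 8.78 and 9.898 FPKM in 769-P and 4.699, 6.84 and 10.8 FPKM in ACHN (log2 fold change 0.74 ± 0.36 (SE), limma adjusted p = 0.118), and it was called only without ACHN siControl replicate 3 (1.04, adjusted p = 0.0433). On the recovered reads (limma-voom, at least 10 reads in at least 3 libraries), 16 of 25 collagen genes were lower in 769-P, with 30.3% of all genes lower, and 3 were higher, with 31.0% higher. This filter also admitted genes through 1 line alone, such as COL19A1 through 769-P and COL14A1 and COL16A1 through ACHN. Such genes could only come out higher in that line, which tilts both counts. The added higher genes were COL19A1, at 19, 26 and 13 reads in 769-P against 0, 1 and 0 in ACHN, and COL28A1, at 26, 25 and 16 against 6, 10 and 12, both named, like COL7A1 and COL27A1 in the line comparison, after their values were seen.

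Within ACHN, several collagen genes, like most genes of that line, differed more between replicate numbers than between siRNAs. COL16A1 was 3.17, 1.198 and 7.34 FPKM with siControl and 2.98, 1.26 and 6.63 FPKM with siNUF2, low in replicate 2 and high in replicate 3 both times. COL1A1 was 1.14, 3.87 and 1.76 and 1.17, 3.39 and 1.67 FPKM, high in replicate 2 both times. COL5A2 was 1.295, 4.32 and 4.21 and 2.26, 5.66 and 7.47 FPKM, low in replicate 1 both times, and COL14A1 was 1.95, 0.657 and 0.2696 and 1.03, 0.591 and 0.2802 FPKM, high in replicate 1 both times. The range of the 3 pair means on the log2(FPKM + 0.1) scale exceeded the mean siNUF2 change in 17 of 19 collagen genes tested in ACHN, beside 82.1% of all genes, and in 5 of 8 in 769-P, beside 60.1% of all genes. A range of 3 means and a mean change are unlike measures, so these counts are a description only. The median range was 0.76 for the ACHN collagen genes and 0.39 for all genes of that line. Same-numbered libraries deviated together in both lines, and knockdown calls are therefore counted without and with the replicate number as a block. Some single-gene estimates are given from only 1 of these fits. Both knockdown comparisons use the siControl libraries of the line comparison.

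In 769-P, the calls for siNUF2 depended on whether the numbered pairs were kept together. Without the block, 0 of the 8 tested collagen genes were called by limma (4 had an unadjusted p below 0.05), beside 9.98% of 14155 genes. With the block, COL4A5, COL7A1 and COL6A2 rose and COL4A2 fell, against a background of 13.6% of genes higher and 13.9% lower. COL4A5 went from 1.66, 2.19 and 2.33 FPKM to 2.37, 2.93 and 3.54 FPKM in 769-P, higher in each pair and without overlap (log2 fold change 0.51 ± 0.08 (SE), limma adjusted p = 0.0122 with the block, and adjusted p = 0.124 without it). COL7A1 went from 17.5, 8.78 and 9.898 to 20.7, 15.3 and 22.7 FPKM, where control replicate 1 lay above siNUF2 replicate 2 (log2 fold change 0.75 ± 0.18 (SE), limma adjusted p = 0.0369 with the block, 0.131 without). Without control replicate 1, COL7A1 was called in the unblocked fit too (1.06, adjusted p = 0.026).

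COL6A2 went from 9.53, 9.81 and 7.71 to 10.4, 12.5 and 11.7 FPKM in 769-P, without overlap (log2 fold change 0.37 ± 0.10 (SE), limma adjusted p = 0.0468 with the block, 0.0941 without). COL4A2 went from 97.9, 108 and 102 to 86.4, 84.4 and 90.8 FPKM, also without overlap (log2 fold change -0.22 ± 0.05 (SE), limma adjusted p = 0.0343 with the block, 0.0693 without). COL4A1, its partner, was 42.9, 33.5 and 38.8 FPKM with siNUF2 and was not called (log2 fold change 0.12, 95% interval -0.06 to 0.30 with the block). COL18A1 was 88.2, 108 and 101 FPKM (log2 fold change -0.17, 95% interval -0.37 to 0.02), COL6A1 11.4, 12.9 and 13.4 FPKM (0.03, -0.16 to 0.22) and COL27A1 7.29, 8.01 and 9.85 FPKM (0.24, 0.01 to 0.47), none of them called. The summed collagen level was 295 ± 16.1 FPKM with siControl and 282 ± 10.9 FPKM with siNUF2, with overlapping groups.

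In ACHN without the block, limma-voom on reads called 0 of 17492 genes, 26 of them collagen genes. Limma on FPKM called 0 of the 19 tested collagen genes (1 had an unadjusted p below 0.05). This was beside 0.0% of 15116 genes (0 called, 1238 at an unadjusted limma p below 0.05). With the block, COL4A1, COL5A2 and COL12A1 rose and COL6A1 and COL18A1 fell, against 7.14% of genes higher and 5.05% lower. COL4A1 went from 92.4, 141 and 139.8 FPKM to 148, 197 and 237 FPKM, without overlap (log2 fold change 0.66 ± 0.06 (SE), limma adjusted p = 0.0134 with the block, 0.541 without). COL4A2 was 263, 295 and 349 FPKM and missed the threshold (log2 fold change 0.16 ± 0.04, adjusted p = 0.0635 with the block), although it was higher in each pair. COL6A1 went from 16.1, 9.55 and 10.9 to 11.6, 6.66 and 7.92 FPKM (log2 fold change -0.46 ± 0.05 (SE), limma adjusted p = 0.0144 with the block, 0.779 without), and its groups overlapped through replicate 1, which was high with both siRNAs. COL6A2 was 28.8, 19.2 and 25.4 FPKM and was not called (log2 fold change 0.08, 95% interval -0.06 to 0.21).

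COL18A1 went from 82.5, 81.2 and 70.2 to 71.8, 64.2 and 59.4 FPKM in ACHN, lower in each pair with groups that overlapped by 1 library (log2 fold change -0.24 ± 0.05 (SE), limma adjusted p = 0.0404 with the block, 0.685 without). COL5A2 went from 1.295, 4.32 and 4.21 to 2.26, 5.66 and 7.47 FPKM (log2 fold change 0.67 ± 0.11 (SE), limma adjusted p = 0.0267 with the block, 0.904 without), and COL12A1 from 7.905, 12.3 and 11.7 to 8.902, 14.04 and 14.6 FPKM (log2 fold change 0.24 ± 0.05 (SE), limma adjusted p = 0.0483 with the block, 0.94 without). The groups of both genes overlapped through replicate 1. The summed fibroblast markers ran from 49.8 to 62.5 FPKM in ACHN siControl and from 41.0 to 53.6 FPKM in ACHN siNUF2, a difference carried by THY1, which averaged 52.2 and 40.4 FPKM. ACTA2 ran from 3.25 to 3.67 FPKM with siControl and from 4.098 to 4.55 FPKM with siNUF2, without overlap, and PDGFRB averaged 0.588 and 1.22 FPKM with overlapping groups. The part of these markers in the results was not tested. Of the other type IV and fibrillar chains, COL4A3 was 1.69, 1.06 and 0.893 FPKM, COL4A4 2.14, 1.72 and 1.799 FPKM, COL4A5 2.43, 3.401 and 2.86 FPKM and COL1A1 1.17, 3.39 and 1.67 FPKM with siNUF2, and none was called, with log2 fold changes between -0.15 and 0.07. The summed collagen level was 581 ± 50.3 FPKM with siControl and 667 ± 84.4 FPKM with siNUF2, with overlapping groups.

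The ratios of partner chains differed in 1 direction in every pair of both lines. The COL4A1 to COL4A2 ratio of FPKM was 0.383, 0.325 and 0.329 in 769-P siControl and 0.496, 0.396 and 0.427 in 769-P siNUF2, and 0.384, 0.515 and 0.459 and 0.563, 0.668 and 0.677 in ACHN. It was higher with siNUF2 in 6 of 6 pairs, by 0.34 on the log2 scale in 769-P and by 0.50 in ACHN. The COL6A1 to COL6A2 ratio was 1.27, 1.38 and 1.51 in 769-P siControl and 1.09, 1.03 and 1.15 in 769-P siNUF2, and 0.619, 0.503 and 0.431 and 0.401, 0.347 and 0.312 in ACHN. It was lower with siNUF2 in 6 of 6 pairs, with log2 differences of -0.34 in 769-P and -0.54 in ACHN. Between the lines under siControl, the COL6A1 to COL6A2 ratio was higher in 769-P (log2 difference 1.43) and the COL4A1 to COL4A2 ratio lower (-0.38). For the latter ratio, 769-P siControl replicate 1 (0.3828) lay only just below ACHN siControl replicate 1 (0.3839). The groups did not overlap in any of these 6 comparisons, each with an exact two-sided permutation p of 0.1, which is the smallest that this test allows for 3 against 3 libraries, and 0.1 after adjustment over the 6. Ratios among COL4A3, COL4A4 and COL4A5, which were above 0.5 FPKM in every ACHN library, were not computed, and in 769-P COL4A3 and COL4A4 stayed below 0.5 FPKM.

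**Figure D3:**
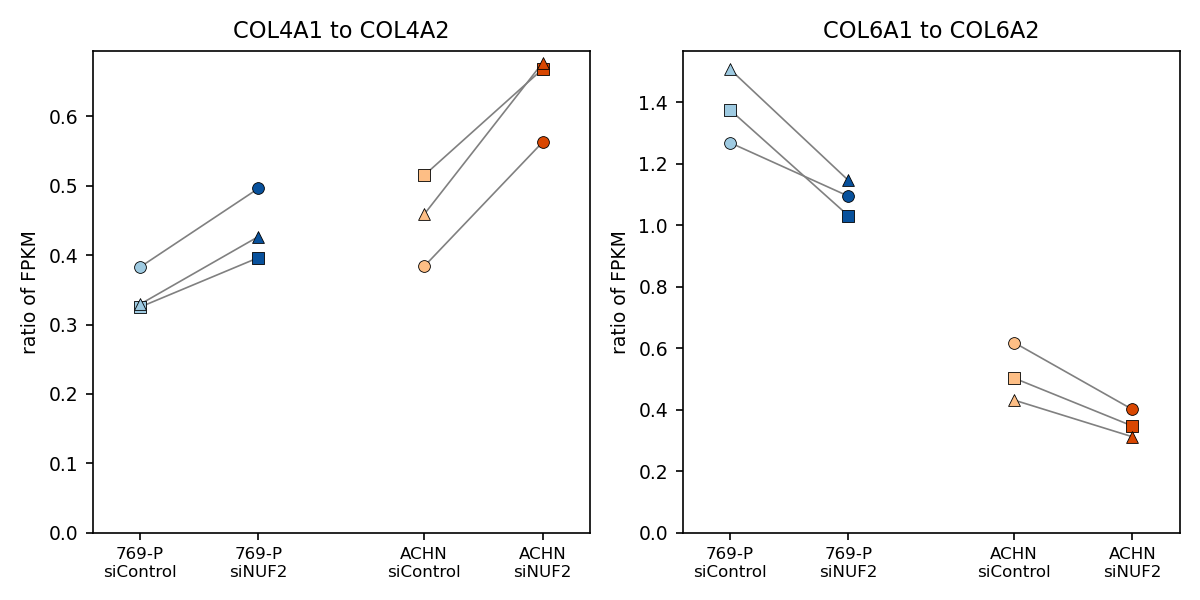
Ratio of the FPKM of COL4A1 to COL4A2 (left) and of COL6A1 to COL6A2 (right) in each library, with lines joining libraries of the same line and replicate number. Each of the 6 lines rises in the left panel and falls in the right panel.

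Among members too low for the FPKM filter, COL6A3, the third chain of type VI collagen, was higher with siNUF2 in every pair of both lines. It was singled out after its values were seen. Its window in RefSeq, shown beside that of COL6A2 because the chains form 1 trimer, is chr2:237414115-237414414 on the minus strand, and that of COL6A2 is chr21:46097862-46098161 on the plus strand. Capitals mark the motif matches on either strand, searched as for type IV:
COL6A2: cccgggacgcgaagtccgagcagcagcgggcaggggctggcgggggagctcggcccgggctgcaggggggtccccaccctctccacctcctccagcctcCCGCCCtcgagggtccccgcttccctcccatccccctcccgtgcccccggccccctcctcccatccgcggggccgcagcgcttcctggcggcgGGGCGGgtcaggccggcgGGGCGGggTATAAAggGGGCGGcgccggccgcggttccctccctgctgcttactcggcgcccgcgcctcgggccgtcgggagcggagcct
COL6A3: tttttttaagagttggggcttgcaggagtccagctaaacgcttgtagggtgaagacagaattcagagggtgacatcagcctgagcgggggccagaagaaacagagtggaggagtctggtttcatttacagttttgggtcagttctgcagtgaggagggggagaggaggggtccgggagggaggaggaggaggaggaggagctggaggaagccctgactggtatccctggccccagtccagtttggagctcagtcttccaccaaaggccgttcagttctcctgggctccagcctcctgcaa
The COL6A2 window holds GGGCGG 4 times, and TATAAA lies 32 bases before its start, whereas the COL6A3 window holds none of the 3 motifs searched. COL6A3 had 15, 12 and 5 reads in 769-P siControl and 112, 96 and 62 in 769-P siNUF2 (0.0259, 0.0191 and 0.00786 against 0.182, 0.16997 and 0.103 FPKM), without overlap. In ACHN it had 1, 38 and 24 reads with siControl and 9, 109 and 81 with siNUF2 (0.00162, 0.0502 and 0.0347 against 0.0125, 0.1603 and 0.1204 FPKM), with replicate 1 low both times. Fitted on reads with limma-voom, the log2 fold change was 3.18 ± 0.46 (SE, adjusted p = 0.00437) in 769-P, and in ACHN 1.78 ± 0.26 (adjusted p = 0.000562) with the replicate block and 1.88 ± 1.47 (adjusted p = 0.918) without it. Even after the rise it stayed below 0.2 FPKM, against 11.5 ± 1.04 FPKM (SD, n = 3) of COL6A2 in 769-P siNUF2.

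On reads, 3 of 20 collagen genes were higher with siNUF2 in 769-P without the block and 0 lower, beside 6.07% and 5.44% of all genes, and 8 were higher and 2 lower with it, beside 17.1% and 16.9%. The 3 were COL6A3, COL5A2 at 26, 29 and 27 reads against 67, 50 and 56 (log2 fold change 1.11 ± 0.22, limma-voom adjusted p = 0.0158) and COL12A1 at 18, 11 and 19 against 56, 29 and 33 (log2 fold change 1.32 ± 0.36, limma-voom adjusted p = 0.0458). COL5A2 and COL12A1 are also genes that rose in ACHN with the block, from levels more than 10 times higher. In ACHN, 6 of 26 collagen genes were higher and 4 lower on reads with the block, beside 11.4% and 9.43% of all genes.

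**Figure D4:**
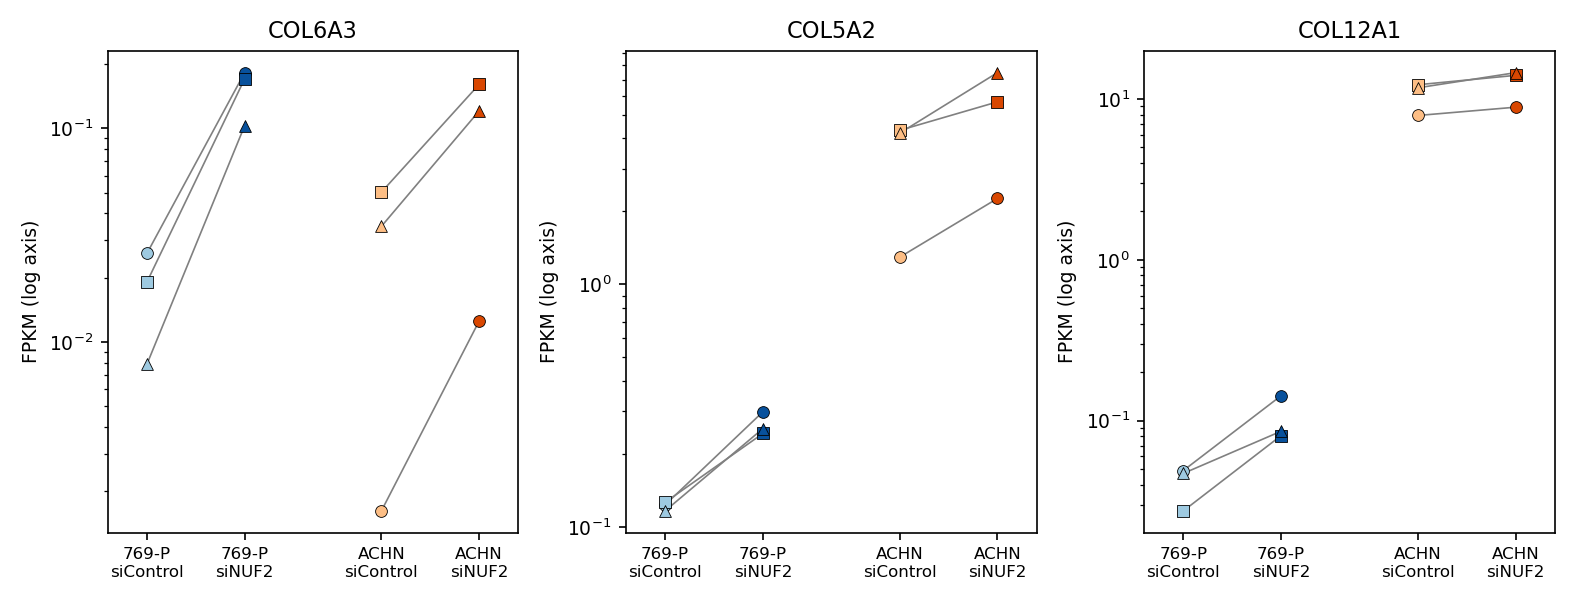
FPKM on log axes of COL6A3, COL5A2 and COL12A1 in each library, with lines joining libraries of the same line and replicate number. All 6 lines rise in each panel, and COL6A3 in ACHN replicate 1 starts from 1 read.

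The difference between the responses of the lines was tested over all 12 libraries. Without the block, limma-voom on reads called 0 of 18767 genes, 27 of them collagen genes. Limma on FPKM called 0 of 16564 genes (0.0%, with 776 at an unadjusted limma p below 0.05), and so 0 of the 19 collagen genes. With the block, 1 collagen gene was higher and 1 lower, beside 0.875% and 0.646% of all genes. COL4A5 differed by 0.60 ± 0.09 (SE, log2 scale, limma adjusted p = 0.0449), with pair differences of 0.49, 0.40 and 0.59 in 769-P against -0.21, -0.08 and -0.06 in ACHN. COL4A2 differed by -0.39 ± 0.06 (limma adjusted p = 0.0488), with -0.18, -0.35 and -0.17 in 769-P against 0.13, 0.11 and 0.20 in ACHN. COL4A1 (-0.55 ± 0.10, adjusted p = 0.0635), COL6A1 (0.49 ± 0.09, 0.0563) and COL6A2 (0.29 ± 0.12, 0.25) missed the threshold.

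Of 43 genes for collagen modification, export, processing and binding, 35 were tested between the lines, and 19 were lower and 4 higher in 769-P, beside the same 29.3% and 32.2% of all genes. LOX, LOXL1, LOXL4, FKBP10, P3H3, P4HA3, TLL2, PCOLCE2 and ITGA1 averaged under 0.5 FPKM in 769-P and passed the filter through ACHN, which tilts this count toward lower calls. Of the 4 cross-linking enzymes tested, LOXL2 was by far the most abundant in 769-P, at 78.7 ± 2.98 FPKM against 154 ± 91.6 FPKM in ACHN, and was not called (log2 fold change -0.74 ± 0.41, limma adjusted p = 0.154), while the other 3 were near or at 0 in 769-P. LOX was 0.118 ± 0.0363 FPKM (SD, n = 3) in 769-P and 88.3 ± 47.97 FPKM in ACHN (log2 fold change -8.43 ± 0.49, limma adjusted p = 2.1e-05), LOXL4 was 0.138 ± 0.0841 and 28.02 ± 6.19 FPKM (log2 fold change -6.91 ± 0.32, limma adjusted p = 8.72e-06), and LOXL1 was listed at 0 in every 769-P library and at 4.34 ± 0.271 FPKM in ACHN. FKBP10, a collagen chaperone, was 0.311 ± 0.0906 FPKM in 769-P and 108 ± 34.9 FPKM in ACHN (log2 fold change -7.98 ± 0.26, limma adjusted p = 2.26e-06), and P3H3, a prolyl 3-hydroxylase family member, was 0.0163 ± 0.0143 and 29.4 ± 8.21 FPKM (log2 fold change -7.94 ± 0.23, limma adjusted p = 1.5e-06). ADAMTS3, a procollagen N-propeptidase, was 1.55 ± 0.195 and 49.3 ± 10.97 FPKM (log2 fold change -4.85 ± 0.18, limma adjusted p = 3.49e-06), and DDR1, a collagen receptor kinase, was 0.714 ± 0.2799 and 15.5 ± 1.45 FPKM (log2 fold change -4.27 ± 0.24, limma adjusted p = 1.8e-05). SERPINH1, the chaperone HSP47 that binds procollagen in every collagen-making cell, differed less, at 19.4 ± 1.45 and 35.4 ± 1.61 FPKM (log2 fold change -0.83 ± 0.09, limma adjusted p = 0.000314). ITGB1, the beta chain of the collagen-binding integrins, was higher in 769-P, at 341 ± 17.3 against 219.5 ± 36.1 FPKM (log2 fold change 0.69 ± 0.14, limma adjusted p = 0.00458).

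With siNUF2 in 769-P, 8 of 26 tested genes of this list rose and 0 fell without the block, beside 9.98% of all genes called in either direction, and 11 rose and 4 fell with the block, beside 13.6% and 13.9% of all genes. The 4 that fell with the block were P3H4, a member of the prolyl 3-hydroxylase family (log2 fold change -0.82 ± 0.08, limma adjusted p = 0.00674), COLGALT1, a collagen galactosyltransferase (log2 fold change -0.19 ± 0.05, limma adjusted p = 0.0399), SEC23A, a COPII coat component (log2 fold change -0.38 ± 0.06, limma adjusted p = 0.0136), and ITGA2, given with ACHN. LOXL2 in the line comparison and these fallers in 769-P were named after their values were seen. By role, without the block, 4 of 12 tested hydroxylation genes rose, 2 of 6 folding and export genes, the 1 cross-linking enzyme tested and 1 of 4 receptors. P3H2, a prolyl 3-hydroxylase of basement membrane collagens, went from 2.58 ± 0.89004 to 6.97 ± 1.75 FPKM (log2 fold change 1.43 ± 0.27, limma adjusted p = 0.0239). PPIB, the cyclophilin of the 3-hydroxylation complex, went from 58.9 ± 0.613 to 79.2 ± 4.54 FPKM (log2 fold change 0.44 ± 0.06, limma adjusted p = 0.0127), and P4HB, the beta subunit of prolyl 4-hydroxylase, from 77.2 ± 8.07 to 107 ± 7.08 FPKM (log2 fold change 0.49 ± 0.10, limma adjusted p = 0.0274). SERPINH1 went from 19.4 ± 1.45 to 26.9 ± 3.19 FPKM (log2 fold change 0.48 ± 0.10, limma adjusted p = 0.0328), FKBP14 from 1.96 ± 0.1799 to 2.86 ± 0.0744 FPKM (log2 fold change 0.53 ± 0.10, limma adjusted p = 0.0259), LOXL2 from 78.7 ± 2.98 to 97.9 ± 4.33 FPKM (log2 fold change 0.32 ± 0.07, limma adjusted p = 0.0296), and MRC2, an uptake receptor for collagen, from 21.03 ± 1.24 to 31.1 ± 2.16 FPKM (log2 fold change 0.57 ± 0.08, limma adjusted p = 0.0112). Several of these, PPIB and P4HB among them, also serve the folding of other secreted proteins.

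In ACHN, 0 of 37 tested genes of the list were called without the block (2 at an unadjusted p below 0.05), and 6 rose and 4 fell with it, beside 7.14% and 5.05% of all genes. P4HB went from 96.9 ± 24.03 to 135 ± 36.4 FPKM (log2 fold change 0.49 ± 0.04, limma adjusted p = 0.0122 with the block, 0.705 without), and TMEM38B, an endoplasmic reticulum cation channel needed for collagen export, from 3.58 ± 0.132 to 5.23 ± 0.408 FPKM (log2 fold change 0.55 ± 0.08, limma adjusted p = 0.0244 with the block, 0.237 without). ITGA2, the alpha chain of a collagen-binding integrin, went from 4.51 ± 1.03 to 2.48 ± 1.03 FPKM in ACHN (log2 fold change -0.87 ± 0.12, limma adjusted p = 0.0203 with the block, 0.559 without) and from 3.03 ± 0.54000 to 2.03 ± 0.359 FPKM in 769-P (log2 fold change -0.55 ± 0.09, limma adjusted p = 0.0165 with the block, 0.0996 without). SERPINH1 was 29.7 ± 3.82 FPKM in ACHN siNUF2, and its response differed between the lines with the block (log2 fold change 0.71 ± 0.07, limma adjusted p = 0.0313), as did that of P3H2 (log2 fold change 1.15 ± 0.17, limma adjusted p = 0.0427). Neither difference was called without the block.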

How the data were processed

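RNA from 12 libraries was sequenced by the authors, who filtered reads with fastp, aligned them to hg38 with HISAT2 2.0.5 and counted them with featureCounts 1.5.0-p3 according to their processing notes. The authors deposited FPKM per gene and library; the annotation release and whether counting used strand are not given in the sources used here. The 44 members and all gene lists were chosen with earlier results of these data known.

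FPKM was divided by a scaling factor per library (trimmed mean of log ratios, trimming 30% of ratios and 5% of levels), genes with at least 0.5 FPKM in at least 3 libraries of a comparison were kept, and log2(FPKM + 0.1) was fitted with limma 3.58.1 (moderated variance with a trend, R 4.3.3). P-values were adjusted by Benjamini-Hochberg over all genes tested, with calls below 0.05. Fold changes are on this scale and understate changes of low genes. Each comparison used only its own groups, and the difference of responses used all 12 libraries.

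Whole reads were recovered for 35910 genes (99.32% of those above 0) within 0.05 reads. At annotated length, 95.4% to 95.6% of values above 0 per library were whole, tested up to 1000000 reads. Of 36155 genes above 0 with a length, 34627 were recovered at annotated length and 1283 with a searched length. The others were not recovered. Recovered totals were 28687228 to 38058949 reads and differed from the totals by which the deposited FPKM were scaled. In ACHN siNUF2 replicate 1, 38058949 reads were recovered against a scaling total of 36568505, and the reason was not tested. The recovered reads were fitted with limma-voom as an alternative chosen after seeing the data. It called 1873 genes in 769-P and 0 in ACHN. Counting intervals are exact (Clopper-Pearson, 95%) and cover counting error only.

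Replicate numbers in the labels were checked as pairs: deviations of same-numbered libraries correlated at 0.19, 0.27, 0.36 in 769-P and 0.46, 0.65, 0.73 in ACHN, so the replicate block is given beside each knockdown result it changes. Between lines the correlations were -0.06, -0.01, 0.04. The fits between the lines and within each line, with and without the block, were tried on simulated FPKM and simulated reads. The fit of the difference of responses and the other alternatives were not. Genes were named by rule: between lines the 12 called members with the largest change; in each knockdown, and for the difference of responses, the members called with or without the block (at most 10); always COL1A1, COL1A2, COL3A1, COL4A1 to COL4A6, COL5A1, COL6A1, COL6A2 and COL18A1; and up to 3 list genes per role by p. Coordinates of promoter windows and their sequences are from RefSeq (GRCh38.p14), exons from GENCODE 29. MIA2 of the export list was not matched by name. The alternatives tried were scaling by median ratios or by upper quartiles, FPKM as deposited, pseudocounts of 1 and 0.01, no filter, the block, all 12 libraries in 1 fit and leaving out each library.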

Additional observations from a re-analysis of the deposited data

Results flagged for a closer look

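The response to siNUF2 differed between the lines, by a test of the difference itself with the replicate number as a block, for COL4A5 (0.60 on the log2 scale, 769-P response minus ACHN response, limma adjusted p = 0.0449) and for COL4A2 (-0.39, limma adjusted p = 0.0488). COL4A5 was higher with siNUF2 in 3 of 3 pairs of 769-P and lower in 3 of 3 pairs of ACHN, and COL4A2 was lower in 3 of 3 pairs of 769-P and higher in 3 of 3 pairs of ACHN. Both adjusted p-values lie just below the threshold, and without the block neither difference was called. Fitted on whole reads by limma-voom, again with the block, the differences were 0.62 (adjusted p = 0.00227) and -0.39 (adjusted p = 0.00171).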

How the results depend on the processing

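Between the lines, 232 fold changes of named members recomputed under an alternative kept their direction and their side of the threshold, 5 lost a call (all of COL4A5), 2 gained one (COL7A1 and COL27A1) and 1 turned sign (COL6A1). In the reported fit 1 of 15 collagen genes was higher in 769-P and 11 lower, beside 4949 and 4511 of all 15376 genes. Without a filter 3 of 42 were higher and 15 lower, beside 5519 and 5716 of 33760 genes. With limma-voom on whole reads 3 of 25 were higher and 16 lower, beside 5467 and 5347 of 17625 genes. The replicate block added to limma-voom gave 3 of 25 higher and 17 lower, beside 5334 and 5401 of 17625 genes. Upper-quartile scaling moved the median log2 fold change of all genes from 0.04 to 0.17. Libraries of different lines share only a replicate number. The replicate block on FPKM left 1 of 15 collagen genes higher and 11 lower, beside 4773 and 4373 of 15376 genes.

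For siNUF2 in 769-P, the block gave 3 of 8 collagen genes higher and 1 lower, against 0 reported. Limma-voom gave 3 of 20 higher, and with the block 8 of 20 higher and 2 lower. The block changed no calls of members other than those named with it. All genes called were 1412 of 14155 in the reported fit, 635 of 31645 without a filter and 3898 of 14155 with the block. They were 700 of 16564 with all 12 libraries in 1 fit and 5528 of 16264 by limma-voom with the block. In ACHN, where 0 were reported, the block gave 3 of 19 collagen genes higher and 2 lower. Limma-voom with the block gave 6 of 26 higher and 4 lower there. All genes called in ACHN were 0 of 15116 as reported and 1843 of 15116 with the block. They were 171 of 16564 with all 12 libraries in 1 fit and 3644 of 17492 by limma-voom with the block. For the difference of responses the block gave 1 of 19 collagen genes higher and 1 lower. Limma-voom with the block gave 4 of 27 higher and 2 lower. All genes called were 0 of 16564 as reported, 2 of 16564 with a pseudocount of 0.01 and 15 of 36305 without a filter. They were 252 of 16564 with the block and 1084 of 18767 by limma-voom with the block. The cause of these changes was not tested.

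Leaving out each library in turn gave 1 to 2 of 15 collagen genes higher and 10 to 11 lower between the lines. This was beside 8076 to 9408 of 15376 genes called in either direction. With siNUF2 it gave 0 to 1 of 8 higher in 769-P and 0 of 19 in ACHN, and for the difference of responses 0 to 1 of all genes. All genes called in 769-P fell to between 347 and 1123, with 1123, 347 and 411 without siControl replicates 1, 2 and 3 and 677, 549 and 355 without siNUF2 replicates 1, 2 and 3. COL6A1, not called in any of these fits, ranged from -0.0564 to 0.32 between the lines and from -0.0182 to 0.0913 with siNUF2 in 769-P. In ACHN, uncalled siNUF2 changes that turned sign ranged from -0.46 to 0.41 for COL1A1, -0.40 to 0.0303 for COL4A3, -0.0274 to 0.14 for COL4A4, -0.22 to 0.00816 for COL4A5 and -0.0646 to 0.24 for COL6A2, and the cause was not tested. The 24 genes that never reached 0.5 FPKM were tested only without the filter or on reads, and their read numbers limit both. Without the filter, COL19A1 (0.77, limma adjusted p = 0.00853) and COL23A1 (0.58, adjusted p = 0.0188) were called higher in 769-P, and COL6A3 missed the threshold with siNUF2 in 769-P (1.09, adjusted p = 0.0569).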
